A study of Homo sapiens with 33 samples.

Results

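Genes of integrins, cadherins, claudins, catenin-named proteins, laminins and collagens were described on nylon membrane arrays of cDNA spots, hybridised with labelled RNA of 2 human cell lines. A spot belonged to the group if the platform annotation gave it a single gene symbol and that symbol began with ITGA, ITGB, CDH, CLDN, LAMA, LAMB, LAMC, CTNN or TJP, or was a collagen chain symbol such as COL1A1. By this rule 107 of the 34560 spots were members, and they stand for 72 genes. No measured value entered the rule. The members were 42 adhesion receptor spots of 27 genes, 18 junction spots of 12 genes and 47 matrix spots of 33 genes. A symbol that begins like a family name is not always a gene of the family. ITGB3BP, ITGB1BP1 and ITGB1BP2 encode proteins that bind integrin tails, ITGBL1 is no integrin chain, and ITGB2-AS1 is an antisense RNA. CTNNBL1, CTNNBIP1 and CTNNAL1 are not the catenins of the cadherin complex. No TJP gene had a spot. Of 36 genes listed by name as typical of these structures, 14 had a spot and 22 had none, among them CDH1, CTNNB1 and TJP1, so the central E-cadherin and β-catenin pair was not measured under these symbols.

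The arrays fall into 4 groups. The first was CaCo-2, a colorectal adenocarcinoma line that grows attached as an epithelium, treated with recombinant human TNF at 5 ng/ml for 60 min (5 arrays), and the second was CaCo-2 without TNF (5 arrays). The third was THP-1, a monocytic leukaemia line that grows in suspension, with the same TNF treatment (7 arrays), and the fourth was THP-1 without TNF (5 arrays). Each line is a single cell line, and the labels do not say whether replicate arrays stand for separate cultures. The p-values therefore measure how far these arrays scatter, which may be technical. Precision is set by how many arrays there are. CaCo-2 and THP-1 differ in origin, medium and growth form together, and these cannot be told apart. RNA was taken from whole cultures, so fewer cells that carry an RNA and less of it per cell cannot be told apart either.

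Integrins are pairs of an α and a β chain that tie the cell to matrix or, on leukocytes, to other cells. Cadherins join neighbouring cells, and claudins form the strands of tight junctions that decide which ions pass between epithelial cells. Laminins and type IV collagen build the basement membrane under an epithelium, while fibrillar collagens such as types I, III and V are mainly made by connective tissue cells. A colon epithelial line would by textbook knowledge carry CDH17, the liver and intestine cadherin, and CLDN4, a barrier claudin. A monocytic line would carry ITGAL, the α chain of the leukocyte integrin LFA-1.

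The values are linear spot intensities, without a physical unit and normalized between arrays. Between 32.0% and 39.6% of the spots of an array were listed at exactly 0, and a 0 was treated as a missing reading after normalization. A 0 did not mark only the dimmest spots. COL7A1, the anchoring fibril collagen, read 0.313 and 0.322 on THP-1 TNF arrays 5 and 8 and was listed at 0 on the other 20 arrays. Members were above 0 in 62.1% of readings in CaCo-2 TNF arrays, 61.9% in CaCo-2 control arrays, 58.6% in THP-1 TNF arrays and 60.1% in THP-1 control arrays. Over all spots the same shares were 64.8%, 65.5%, 65.6% and 66.6%. Of the members, 15 (14%) were above 0 on all 22 arrays, against 18.5% of all spots, and COL5A1 spot 2 was at 0 on all 22. COL8A1 was at 0 on 21 arrays and had no usable reading on THP-1 control 1. A spot entered a test if at least 3 arrays of every group in it were above 0, and 31 members met this in no comparison. The signal of a spot depends on its cDNA as well as on the RNA, so the levels of different spots are not compared as results.

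The CaCo-2 arrays fell into 3 sets that the labels do not describe. TNF 1, TNF 2 and control 1 (set A) had a lowest positive value of 0.130 to 0.136, against 0.0921 to 0.108 in the other CaCo-2 arrays. TNF 6 and control 5 (set B) had a highest value of 133.4 and 134.6, against 142.6 to 145.1 in the others. The remaining arrays (set C) were TNF 4 and 5 and control 2, 3 and 4. Rank correlations over spots were at least 0.996 within sets A and B and at least 0.9956 within set C. Between set A and set C the median was 0.9930, and between set A and the THP-1 arrays it was 0.9951. The part of these sets in the line differences was not tested beyond the values given with and without them.

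Marker genes differed between the lines on some spots and not on others. VIL1, the brush border protein villin, was higher in CaCo-2, at a mean of 0.182 against 0.168 in THP-1 (log2 fold change 0.11, limma adjusted p = 0.000585). One spot of ELF3, an epithelial transcription factor, was above 0 on 8 CaCo-2 arrays and on 0 THP-1 arrays, while the other was above 0 on 2 CaCo-2 and 11 THP-1 arrays. LAPTM5, a lysosomal protein of blood cells, was above 0 on 1 CaCo-2 array and all 12 THP-1 arrays. Over all 34560 spots, 0.284% differed in listing above 0 between the lines by Fisher's exact test after adjustment. PTPRC, the pan-leukocyte phosphatase CD45, averaged 0.387 in CaCo-2 on 9 arrays and 0.399 in THP-1 on 12, with adjusted p = 0.226. Over the lists, 1 of 3 tested intestinal spots was higher in CaCo-2 and none lower, and 1 of 6 tested monocytic spots, of LST1, was lower. The other tested LST1 spot had the opposite sign (log2 fold change 0.05, limma adjusted p = 0.160). TYROBP (0.04) and CSF1R (0.02) were also above 0, and AIF1 (-0.04) and PTPRC (-0.05) below, none past the threshold. Over all tested spots 17.7% passed, 2182 higher and 816 lower in CaCo-2. The monocytic share (16.7%) was thus near the background, and the intestinal share rests on 1 spot. Of 3 tested fibroblast and endothelial spots, 0 passed the threshold.

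The first comparison asked how the adhesion genes of the attached epithelial line differ from those of the suspension line. Over all arrays, 48 of the 107 members could be tested and 10 passed an adjusted p of 0.05 by limma (20.8%), beside 17.7% of the 16931 spots tested. The share among members was thus close to the background. Of the 10 spots, 7 were higher and 3 were lower in CaCo-2. By class, 5 of 19 receptor spots, 4 of 9 junction spots and 1 of 20 matrix spots passed. Among the called genes, ITGB3BP, ITGB2-AS1, CTNNBIP1 and CTNNBL1 were in their class by symbol only. Shares without such symbols were not counted. The median log2 fold change was 0.04 for receptors, 0.05 for junction genes and 0.02 for matrix genes, and 0.03 for all tested spots. The differences were small, and the fold of the 10 spots ran from 0.874 for ITGB8 spot 1 to 1.15 for ITGA7.

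ITGA7, the α chain of a laminin receptor best known from skeletal muscle, had the largest log2 fold change of the 48 tested members. It read 0.513, 0.5257, 0.606, 0.540 and 0.542 in CaCo-2 TNF arrays and 0.4931, 0.599, 0.525, 0.576 and 0.548 in CaCo-2 control arrays. In THP-1 TNF arrays it was above 0 on 5 of 7, with a lowest value of 0.462, a median of 0.471 and a highest of 0.490. The THP-1 control arrays read 0.484, 0, 0.4665, 0.474 and 0.480. Among arrays above 0, every CaCo-2 value lay above every THP-1 value. How many of all spots lay apart in this way with readings at 0 left out was not counted. CaCo-2 averaged 0.547 ± 0.0367 (SD, n = 10) and THP-1 0.475 ± 0.00894 (SD, n = 9), a log2 fold change of 0.20 ± 0.03 (SE) with limma adjusted p = 0.00102. The difference by set was 0.10 in set A, 0.20 in set B and 0.26 in set C. With the readings at 0 raised to the lowest positive value, the log2 fold change was 0.73 with adjusted p = 0.217 (3 THP-1 arrays were at 0).

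ITGB8 spot 1 went the other way. Its product pairs with the αV chain and activates latent TGF-β. CaCo-2 TNF arrays read 1.00, 0.925, 0.846, 0.855 and 0.812 and CaCo-2 control arrays 0.892, 0.862, 0.884, 0.979 and 0.882. THP-1 TNF arrays ran from 0.868 over a median of 1.02 to 1.08, and THP-1 control arrays read 0.974, 0.982, 1.13, 1.19 and 1.01. The lines overlapped, with most CaCo-2 arrays below most THP-1 arrays. The log2 fold change was -0.19 ± 0.05 (SE) with adjusted p = 0.00727. ITGB8 had 5 spots, and spot 2 did not follow spot 1: its log2 fold change was 0.02 with a 95% interval from -0.04 to 0.08 and adjusted p = 0.648. Spots 4 and 5 were above 0 on 1 CaCo-2 TNF array each.

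The other called spots of the receptor class were ITGB3BP spot 1, ITGB2-AS1 and CDH2 spot 1. Of these genes only CDH2 encodes an adhesion receptor. All were higher in CaCo-2 in the reported fit, with CDH2 spot 1 turning in others. ITGB3BP encodes a binding protein of the β3 integrin tail that is also a centromere component. Its spot 1 averaged 1.46 ± 0.0941 in CaCo-2 (SD, n = 10) and 1.33 ± 0.0910 in THP-1 (SD, n = 12), with log2 fold change 0.13 and adjusted p = 0.0256. ITGB2-AS1 lies antisense to the gene of the leukocyte β2 chain, and no source used here says whether a spot tells the strands apart. It averaged 0.521 ± 0.0208 in CaCo-2 (SD, n = 10) and 0.487 ± 0.0171 in THP-1 (SD, n = 12), with log2 fold change 0.10 and adjusted p = 0.00989. CDH2, N-cadherin, averaged 0.196 ± 0.00703 in CaCo-2 on 8 arrays and 0.188 ± 0.00291 in THP-1 on 12, with log2 fold change 0.06 and adjusted p = 0.0322. Its direction turned in 4 of 38 alternatives, to as low as -0.30 with a pseudocount and zeros kept, and the call was lost in 16.

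CDH17 and ITGAL, which textbook knowledge assigns to one kind of cell, did not pass the threshold. CDH17 spot 1 read 0.566, 0.489, 0.472, 0.509 and 0.494 in CaCo-2 TNF arrays and 0.582, 0.465, 0.497, 0.505 and 0.489 in CaCo-2 control arrays. THP-1 TNF arrays ran from 0.472 over a median of 0.520 to 0.532, and THP-1 control arrays read 0.532, 0.510, 0.588, 0.561 and 0.502. The groups overlapped throughout, with log2 fold change -0.05, a 95% interval from -0.13 to 0.03 and adjusted p = 0.358. By set, CDH17 spot 1 stood at 0.06 in set A, -0.08 in set B and -0.09 in set C, so the sets differed in direction. CDH17 spot 2 was above 0 on 7 CaCo-2 and 6 THP-1 arrays and could be compared between lines in control arrays only. There it had the opposite sign, at 0.06 with limma adjusted p = 0.627. ITGAL averaged 1.85 ± 0.0907 in CaCo-2 (SD, n = 10) and 1.83 ± 0.105 in THP-1 (SD, n = 12). Its log2 fold change was 0.01 with a 95% interval from -0.06 to 0.08, so a difference of the size seen for ITGA7 lies outside the interval. ITGA2, the α chain of a collagen receptor of epithelia and platelets, averaged 1.62 ± 0.0756 in CaCo-2 (SD, n = 10) and 1.57 ± 0.0955 in THP-1 (SD, n = 12), with adjusted p = 0.321. ITGB1, the common β chain, was above 0 on 7 CaCo-2 and 9 THP-1 arrays and gave a log2 fold change of 0.03 with adjusted p = 0.372. CDH11 spot 1, a cadherin of mesenchymal cells, missed the threshold at log2 fold change 0.08 and adjusted p = 0.0624.

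**Figure D1:**
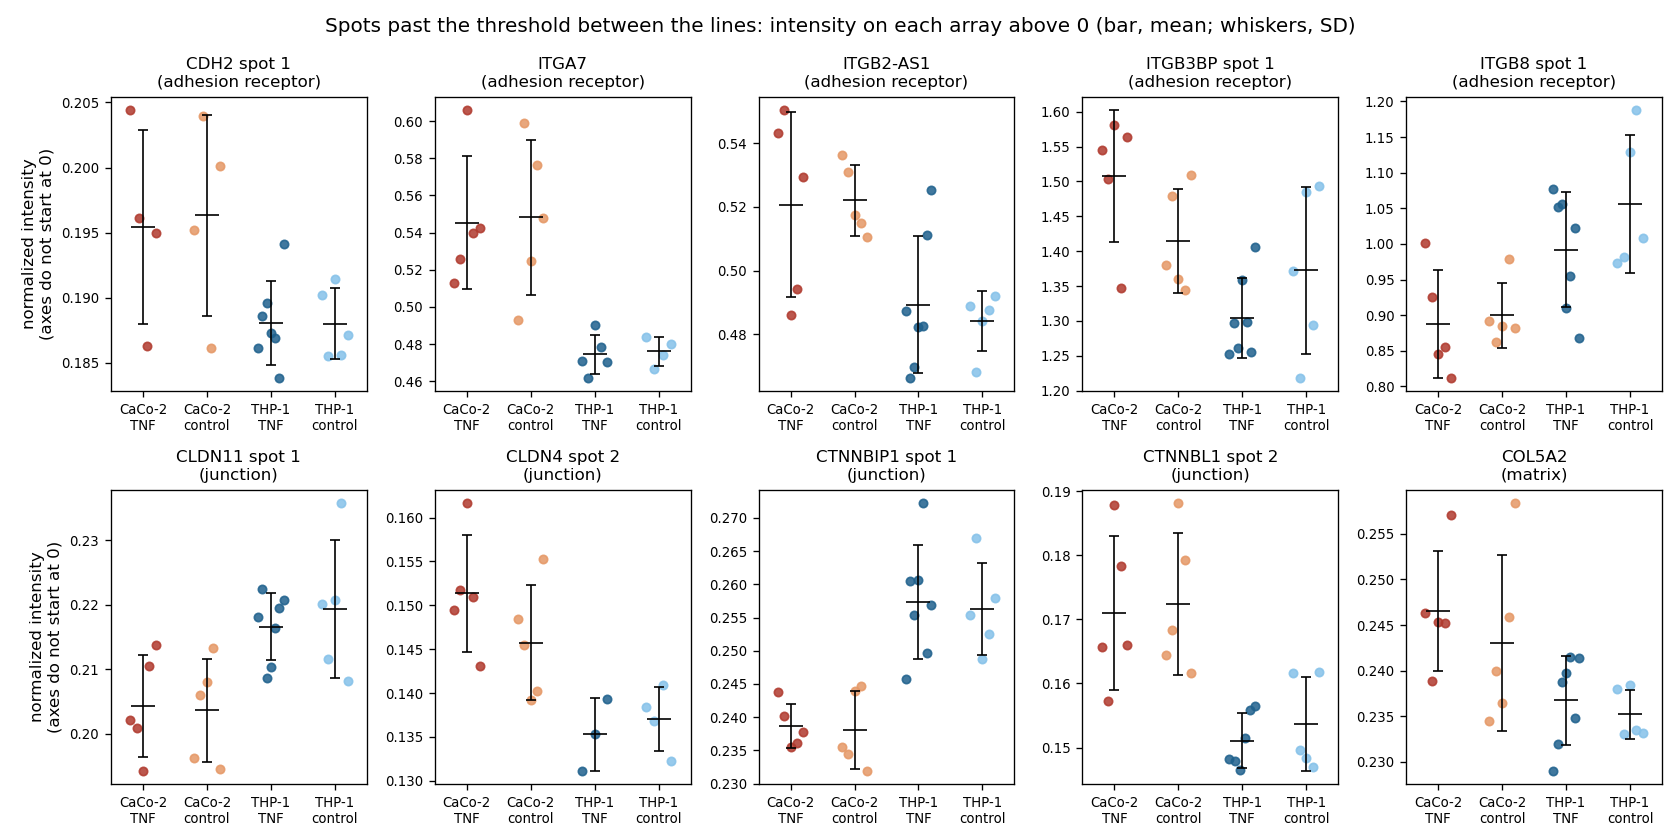
Normalized intensity (vertical axes, not from 0) of the 10 spots past the threshold between the lines, on each array above 0, in CaCo-2 TNF, CaCo-2 control, THP-1 TNF and THP-1 control arrays. Bars are means and whiskers SD. CTNNBIP1 spot 1 shows no overlap between the lines, nor does ITGA7 with its THP-1 readings at 0 left out. The TNF and control arrays of a line overlap in every panel. ITGB3BP spot 1 averaged higher with TNF in CaCo-2 and lower with TNF in THP-1, neither past the threshold.

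Among the junction spots, CTNNBIP1 spot 1 had the smallest p of all members. CTNNBIP1 (ICAT) binds β-catenin and keeps it from its transcription partners. It read 0.244, 0.240, 0.235, 0.236 and 0.238 in CaCo-2 TNF arrays and 0.235, 0.234, 0.244, 0.245 and 0.232 in CaCo-2 control arrays. THP-1 TNF arrays ran from 0.246 over a median of 0.257 to 0.272, and THP-1 control arrays read 0.255, 0.267, 0.249, 0.253 and 0.258. Every CaCo-2 array lay below every THP-1 array. This was the only member among the 15 above 0 on all arrays whose lines did not overlap, and 0.594% of the 6401 such spots on the membrane showed no overlap. The log2 fold change was -0.11 ± 0.02 (SE) with limma adjusted p = 0.000383, and it was -0.10, -0.13 and -0.10 in sets A, B and C. CTNNBIP1 spot 2 read 0.129 ± 0.00853 in CaCo-2 (SD, n = 7) and 0.123 ± 0.00334 in THP-1 (SD, n = 8), with the opposite sign and adjusted p = 0.225.

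CTNNBL1 was higher in CaCo-2 on both of its spots. It encodes a β-catenin-like protein of the spliceosome. Spot 2 read 0.166, 0.157, 0.188, 0.178 and 0.166 in CaCo-2 TNF arrays and 0.164, 0.168, 0.188, 0.179 and 0.162 in CaCo-2 control arrays. In THP-1 TNF arrays it was above 0 on 6 of 7, from 0.146 over a median of 0.1499 to 0.157, and THP-1 control arrays read 0.162, 0.1497, 0.148, 0.147 and 0.162. The lines met at 0.157 to 0.162 and were otherwise apart. The log2 fold change was 0.17 ± 0.03 (SE) with adjusted p = 0.00138. Spot 1 was above 0 on 10 CaCo-2 arrays and 6 THP-1 arrays and could be tested in TNF arrays only, where its log2 fold change was 0.13 with adjusted p = 0.0355. Over 29 alternatives it ran from 0.10 to 0.58, and the call was lost in 15.

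The claudins did not move as a block. CLDN4 had spots of opposite sign. Spot 2 was above 0 on 10 CaCo-2 arrays, averaging 0.149 ± 0.00691 (SD), and on 7 THP-1 arrays, averaging 0.136 ± 0.00365 (SD), with log2 fold change 0.12 and adjusted p = 0.00586. Over 35 alternatives it ran from 0.11 to 0.55 with adjusted p up to 0.651, and the call was lost in 5. Spot 1 averaged 1.13 ± 0.0789 in CaCo-2 (SD, n = 10) and 1.196 ± 0.0932 in THP-1 (SD, n = 12), with log2 fold change -0.08, a 95% interval from -0.17 to 0.01 and adjusted p = 0.215. The spots thus gave CLDN4 no common direction. CLDN11 spot 1, a claudin of myelin and of Sertoli cells, was lower in CaCo-2. It averaged 0.204 ± 0.00751 in CaCo-2 (SD, n = 10) and 0.218 ± 0.00763 in THP-1 (SD, n = 12), with log2 fold change -0.10 and adjusted p = 0.00611. CLDN11 spot 2 had the opposite sign and too few readings for a test. It averaged 0.182 in CaCo-2 on 6 arrays and 0.171 in THP-1 on 3, and was higher than THP-1 in sets A, B and C by 0.14, 0.06 and 0.08 on the log2 scale. CLDN12 spot 1 (log2 fold change 0.05, adjusted p = 0.0647) and CLDN23 (0.05, adjusted p = 0.169) did not pass, and CLDN18, a claudin of stomach and lung, stood at -0.03 with adjusted p = 0.467. CLDN1, another barrier claudin, had spots above 0 on at most 7 THP-1 and 6 CaCo-2 arrays and could not be tested over all arrays.

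Of the 20 matrix spots tested, COL5A2 alone passed. It encodes a chain of type V collagen, which sits in type I fibrils. It read 0.246, 0.239, 0.245, 0.245 and 0.257 in CaCo-2 TNF arrays and 0.234, 0.240, 0.236, 0.246 and 0.258 in CaCo-2 control arrays. THP-1 TNF arrays ran from 0.229 over a median of 0.239 to 0.241, and THP-1 control arrays read 0.238, 0.233, 0.238, 0.233 and 0.233. The lines overlapped, and 2 CaCo-2 arrays of set B were the highest. The log2 fold change was 0.05 ± 0.02 (SE) with adjusted p = 0.0332, and without the set B arrays it was 0.03 with adjusted p = 0.106. COL9A1 spot 1, a chain of a cartilage collagen, was next at 0.07 and adjusted p = 0.0579. COL6A3 spot 1, a chain of microfibrillar collagen VI, averaged 0.534 ± 0.0255 in CaCo-2 (SD, n = 10) and 0.514 ± 0.0236 in THP-1 (SD, n = 12), with adjusted p = 0.172. COL1A1 averaged 0.390 ± 0.0104 in CaCo-2 (SD, n = 9) and 0.381 ± 0.00706 in THP-1 (SD, n = 12), with adjusted p = 0.203.

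Of 7 tested laminin and type IV collagen spots, 0 passed the threshold, beside 17.7% of all tested spots. At an unadjusted p under 0.05 there was 1, LAMC3 spot 1, beside 34.6% of all tested spots. LAMC1 spot 1, the γ1 chain found in most laminins, had a log2 fold change of 0.03 (95% interval from -0.02 to 0.07), and spot 2 had 0.01. COL4A1 spots 1 and 2 stood at 0.01 each, and LAMA4 spot 1 at 0.00. LAMC3 spot 1 stood at 0.04 (95% interval from 0.00 to 0.09, adjusted p = 0.128) and spot 2 at 0.00. The matrix differences ran from -0.04 for COL12A1 to 0.07 for COL9A1 spot 1. Of the 7 genes with several tested spots, 4 had all of them on one side of 0, and CLDN4, CTNNBIP1 and ITGB8 did not.

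**Figure D2:**
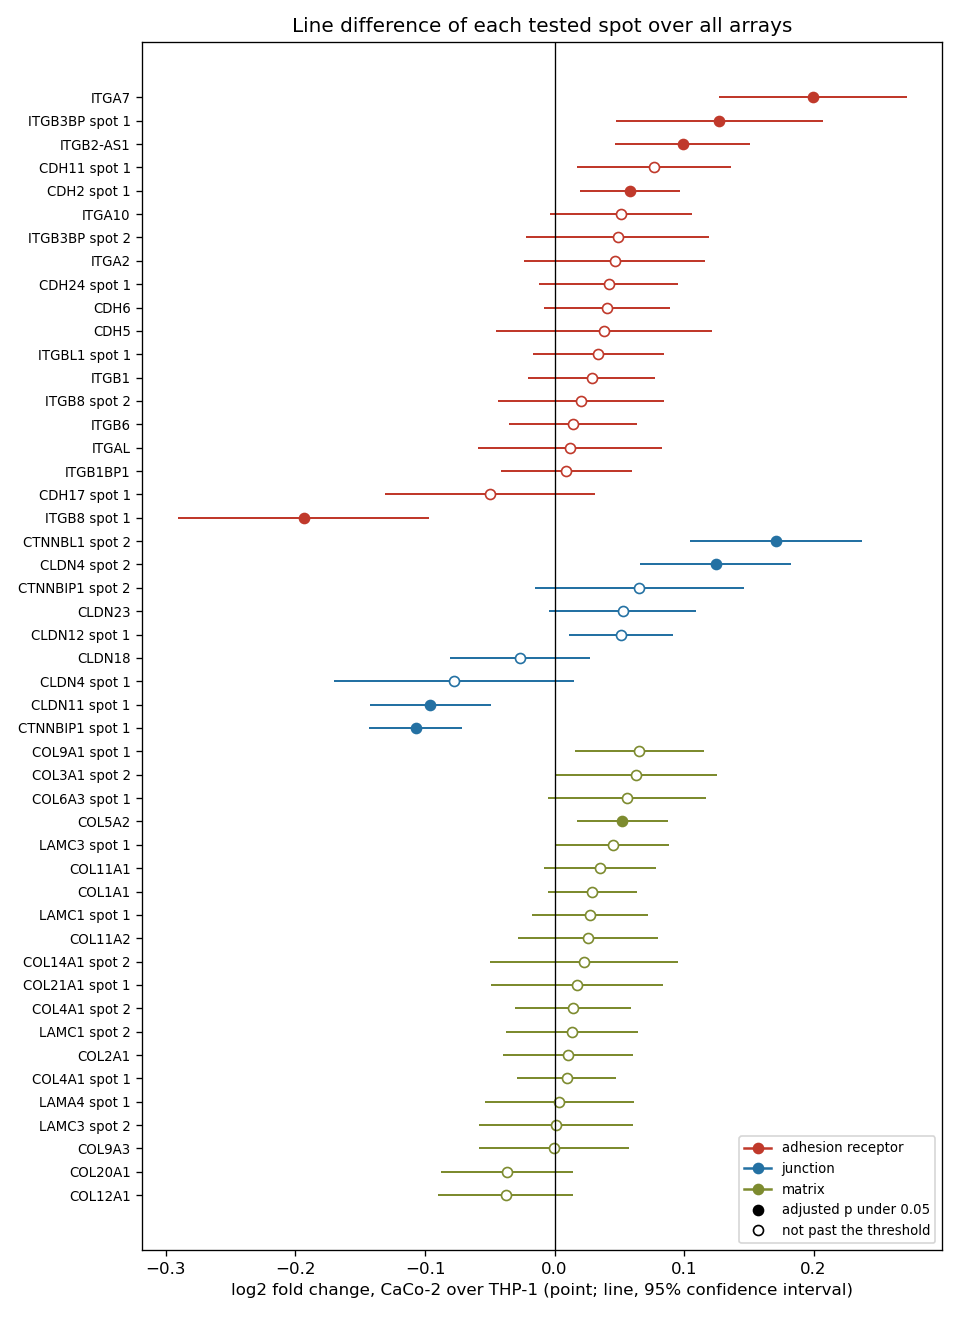
Log2 fold change of CaCo-2 over THP-1 (horizontal axis) with its 95% confidence interval for the 48 tested spots, by class. Filled points passed the threshold (10 spots); receptor and junction spots spread from -0.19 to 0.20, while matrix spots lie between -0.04 and 0.07.

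The calls depended on how the CaCo-2 sets entered the fit. The 10 called spots lay on one side of THP-1 in all 3 sets, as did 2825 of the 2998 called spots over the whole array. Called or not, 24 of the 45 members measured in every set did so (53.3%), beside 53.9% of all such spots. Leaving out set A gave 13 called members of 31 tested, 9 of them among the 10, beside 27.9% of 11806 spots. Leaving out set B gave 7 of 41, all 7 among the 10, beside 13.5% of 14434 spots. With the CaCo-2 sets as a random block, 3 of 48 members passed, ITGA7 (adjusted p = 0.0207), CTNNBIP1 spot 1 (adjusted p = 0.0119) and CTNNBL1 spot 2 (adjusted p = 0.0265), beside 3.24% of all spots. With the THP-1 arrays as 1 further block, 0 members passed, beside 0.118% of all spots. At an unadjusted p under 0.05 there were 8 of 48 members, beside 1708 of 16931 spots. Leaving out single arrays ended the call of 4 spots and added others. COL5A2 missed the threshold without any of 7 arrays, with adjusted p between 0.0501 and 0.0653, CDH2 spot 1 without any of 6, between 0.0501 and 0.0702, and ITGB3BP spot 1 without THP-1 control 2 (0.0506) or 4 (0.0526). CLDN4 spot 2 could not be tested without THP-1 TNF 1, 6 or 8, the only THP-1 TNF arrays where it was above 0. The count was 12 without THP-1 TNF 8, with 9 of them among the 10, beside 25.5% of all spots. It was 12 without CaCo-2 TNF 5, with all 10 among them, beside 19.9%. The arrays for COL5A2 were THP-1 control 2 and 4, THP-1 TNF 1 and 2, CaCo-2 control 4 and 5 and CaCo-2 TNF 6. For CDH2 they were THP-1 control 2 and 4, THP-1 TNF 1, CaCo-2 control 3 and 5 and CaCo-2 TNF 2.

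The line difference was measured separately in TNF-treated and in untreated cells, which share no arrays. Sets A, B and C each hold CaCo-2 arrays of both treatments, and all arrays were normalized together. The 2 comparisons are therefore not independent, and the part of the sets in matching signs was not tested. Between TNF-treated cells, 5 of 63 tested members passed (7.94%), beside 2.14% of 20750 spots. They were ITGA7 (log2 fold change 0.20, adjusted p = 0.0340), ITGB3BP spot 1 (0.21, adjusted p = 0.0305), CTNNBL1 spot 1 (0.13, adjusted p = 0.0355), CTNNBL1 spot 2 (0.18, adjusted p = 0.0397) and CTNNBIP1 spot 1 (-0.11, adjusted p = 0.0378). Of these genes only ITGA7 encodes an integrin chain, and the others are members by symbol only. With the CaCo-2 sets as a random block, 0 of 63 members passed, beside 0.289% of all spots. At an unadjusted p under 0.05 there were 16 members, beside 3213 of 20750 spots. The count of 5 was 0 without THP-1 TNF 2 or 3, beside 0.737% and 0.782% of all spots. Without THP-1 TNF 1 or 4 it was 1, beside 0.567% and 0.842%. Without CaCo-2 TNF 4 or 6 it was 1, beside 1.37% and 1.32%. It was 2 without THP-1 TNF 6 (0.912%), 3 without CaCo-2 TNF 5 (2.73%) and 7 without THP-1 TNF 8 (8.63%). The share over all spots thus moved with the array left out. Between untreated cells, 0 of 54 members passed by limma, beside 0.386% of 19420 spots, and 9 members (16.7%) had an unadjusted p under 0.05, beside 17.7% of spots. The differences there were of like size for ITGA7 (0.20, adjusted p = 0.114), CTNNBL1 spot 2 (0.16, adjusted p = 0.118) and CTNNBIP1 spot 1 (-0.11, adjusted p = 0.0822), and 0.05 for ITGB3BP spot 1 (adjusted p = 0.701). Leaving out CaCo-2 control 1 gave 2 called members of 44 tested in untreated cells, beside 5.54% of 17107 spots. Of the 48 members tested in both, 36 had the same sign (75.0%), beside 78.0% of all spots. The sign matched for 15 of 19 receptor spots, 9 of 9 junction spots and 12 of 20 matrix spots.

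**Figure D3:**
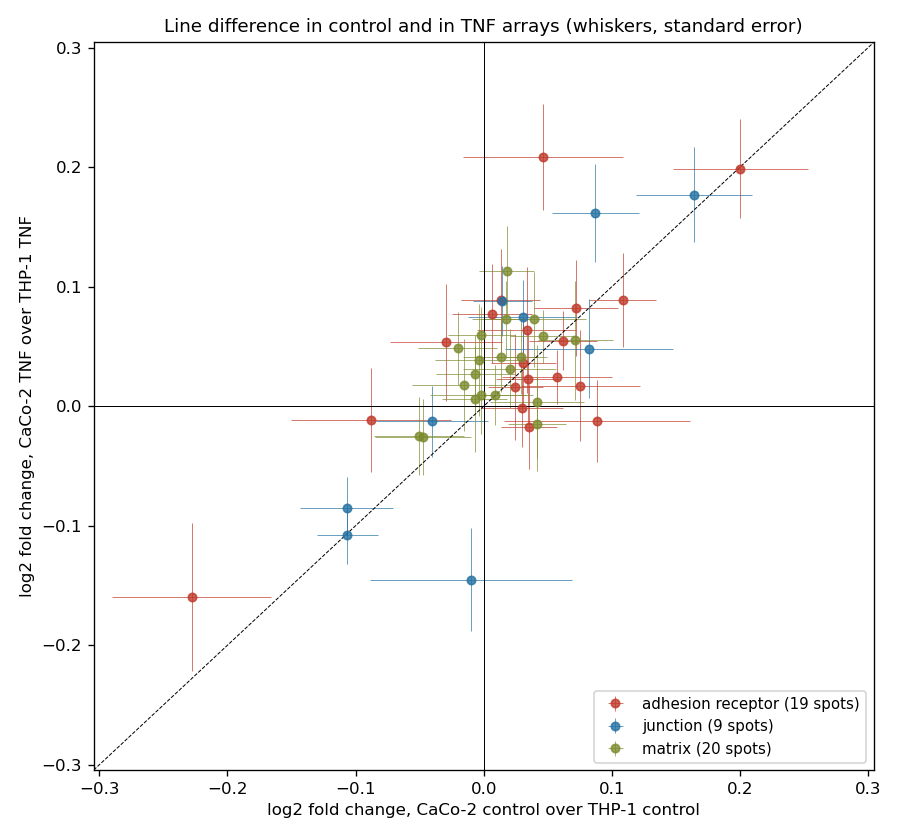
Log2 fold change of CaCo-2 over THP-1 in TNF arrays (vertical) against that in control arrays (horizontal) for the 48 members tested in both, with standard errors and a dashed line of equality. ITGA7 stands at the upper right at 0.20 in both, ITGB8 spot 1 at the lower left at -0.16 and -0.23, and the matrix spots crowd around 0.

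Listing above 0 was compared between the lines on its own, by Fisher's exact test over 10 CaCo-2 and 12 THP-1 arrays. None of the 107 members passed after adjustment over all spots, and 0.284% of all 34560 spots did. At an unadjusted p under 0.05 there were 9 members, beside 2373 of the 34560 spots, so the spots described next are about as frequent as the background. COL9A2, another cartilage collagen chain, had the smallest p. It was above 0 on CaCo-2 TNF 1 and CaCo-2 control 5, at 0.153 and 0.134, and on 11 of 12 THP-1 arrays, at 0.131 to 0.139 (exact p = 0.00155, adjusted p = 0.188). CTNNAL1, an α-catenin-like scaffold protein, was above 0 on 9 CaCo-2 and 3 THP-1 arrays (exact p = 0.00369). COL13A1 spot 1, a transmembrane collagen, was above 0 on 8 CaCo-2 and 2 THP-1 arrays (exact p = 0.00828), and its spot 3 on 4 CaCo-2 and 0 THP-1 arrays (exact p = 0.0287). CTNNBL1 spot 1 was above 0 on 10 and 6 arrays (exact p = 0.0152), and CLDN4 spot 2 on 10 and 7 (exact p = 0.0396), CaCo-2 first in each pair. ITGA9, a receptor of tenascin, was above 0 on 6 CaCo-2 arrays and 1 THP-1 array (exact p = 0.0201). ITGA5, the α chain of the fibronectin receptor, went the other way, on 6 CaCo-2 and 12 THP-1 arrays (exact p = 0.0287). LAMA4 spot 2, a laminin chain of vessels, was above 0 on 10 CaCo-2 and 7 THP-1 arrays (exact p = 0.0396). COL23A1, another transmembrane collagen, was not among these 9 spots. It was above 0 on 1 of 5 CaCo-2 TNF arrays, 5 of 5 CaCo-2 control arrays, 0 of 7 THP-1 TNF arrays and 2 of 5 THP-1 control arrays. This was not tested between treatments, and how many spots show such a split was not counted. By class, junction spots were above 0 in 74.4% of readings from CaCo-2 TNF arrays, 76.7% from CaCo-2 control, 61.9% from THP-1 TNF and 62.2% from THP-1 control arrays. For matrix spots the shares were 59.1%, 58.7%, 60.1% and 62.4% in the same order, and for receptors 60.0%, 59.0%, 55.6% and 56.7%. Over all spots they were 64.8%, 65.5%, 65.6% and 66.6%. The class shares were not tested, and the junction class holds CTNNAL1, CTNNBL1 and CTNNBIP1 by symbol only.

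**Figure D4:**
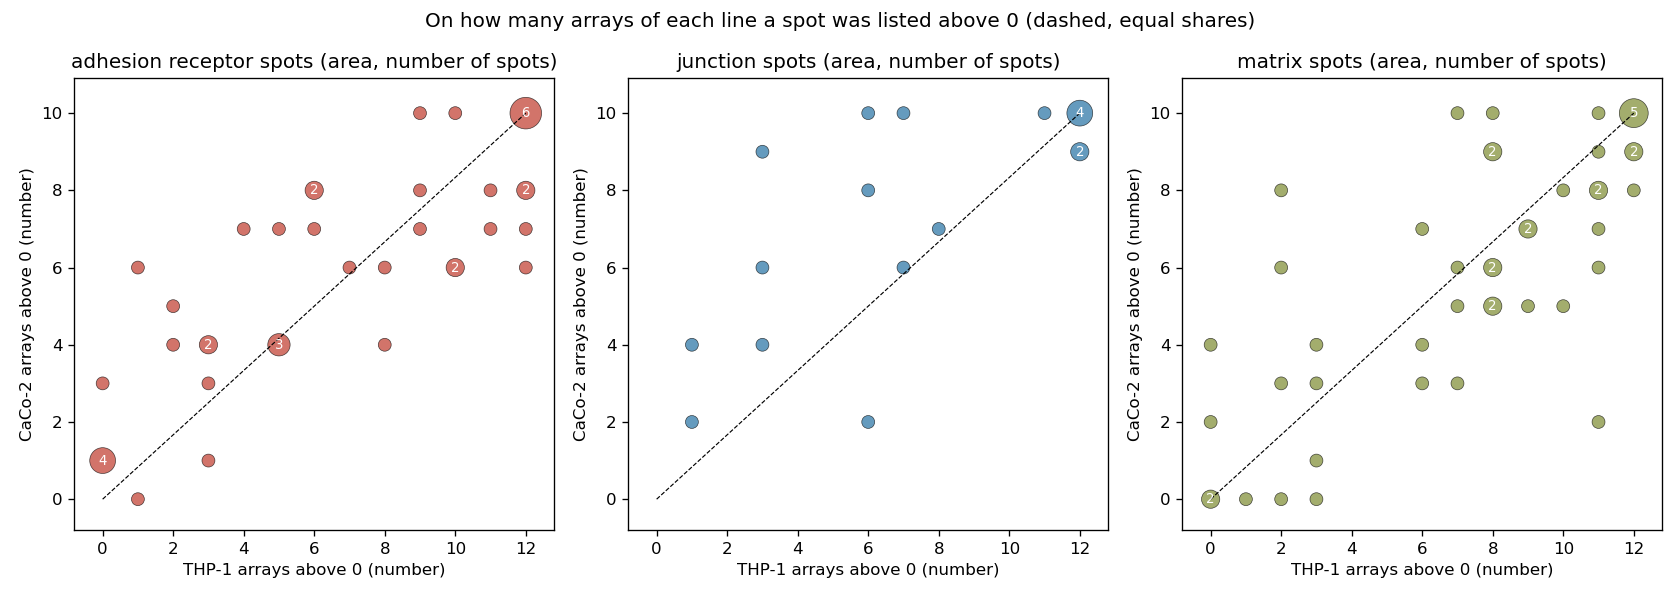
Number of CaCo-2 arrays (vertical, of 10) against THP-1 arrays (horizontal, of 12) on which a spot was listed above 0, for receptor, junction and matrix spots. Area and printed number give the spots at a point and the dashed line marks equal shares. COL9A2 lies at 2 and 11 in the matrix panel. Most junction spots lie above the line, among them CTNNAL1 and CTNNBL1, and the share of all spots above it was not counted.

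The TNF comparisons asked whether 60 min of TNF changed these genes within a line. In CaCo-2, 0 of 56 tested members passed by limma, beside 0% of 19479 spots. At an unadjusted p under 0.05 there were 0 members, beside 2.46% of these spots. In THP-1, 0 of 66 passed, beside 0% of 21989 spots, and 1 member (1.52%) had an unadjusted p under 0.05, beside 2.47% of these spots. That one was ITGA5, which read 0.170, 0.171, 0.168, 0.172, 0.176, 0.169 and 0.172 in THP-1 TNF arrays and 0.180, 0.174, 0.176, 0.171 and 0.182 in THP-1 control arrays. The values overlapped, with log2 fold change -0.04 and a 95% interval from -0.08 to -0.01 before any adjustment (limma adjusted p = 0.9997). In CaCo-2, the smallest unadjusted p of a matrix gene was that of COL9A1 spot 1, at log2 fold change 0.07 (95% interval from -0.01 to 0.16). For junction genes it was CLDN12 spot 1, at 0.06 (from -0.01 to 0.14), and for receptors CDH6, a kidney cadherin, at -0.08 (from -0.18 to 0.02).

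For ITGAL, CLDN4 and CDH17, the TNF intervals included 0. ITGAL stood at 0.07 in CaCo-2 (95% interval from -0.02 to 0.17) and -0.01 in THP-1 (from -0.11 to 0.10). CLDN4 spot 1 stood at -0.07 in CaCo-2 (from -0.19 to 0.05) and 0.07 in THP-1 (from -0.07 to 0.20). CDH17 spot 1 stood at 0.00 in CaCo-2 (from -0.13 to 0.13) and -0.08 in THP-1 (from -0.17 to 0.01). Over the 48 members tested in both lines, the TNF differences ran from -0.09 to 0.09 in CaCo-2 and from -0.09 to 0.08 in THP-1. They were above 0 in both lines for 13 members and below 0 in both for 10. COL8A2, tested in THP-1 only, had the widest value at 0.20 (from -0.03 to 0.42). It read 0.107 on THP-1 control 3, the column taken as a sum, against 0.1485 and 0.1502 on the other THP-1 control arrays above 0. The TNF effects of the lines differed for 0 of 48 members, beside 0% of 16931 spots. At an unadjusted p under 0.05 there was 1 member (2.08%), ITGB3BP spot 1, beside 2.43% of these spots. Its difference was 0.16 (95% interval from 0.00 to 0.32).

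**Figure D5:**
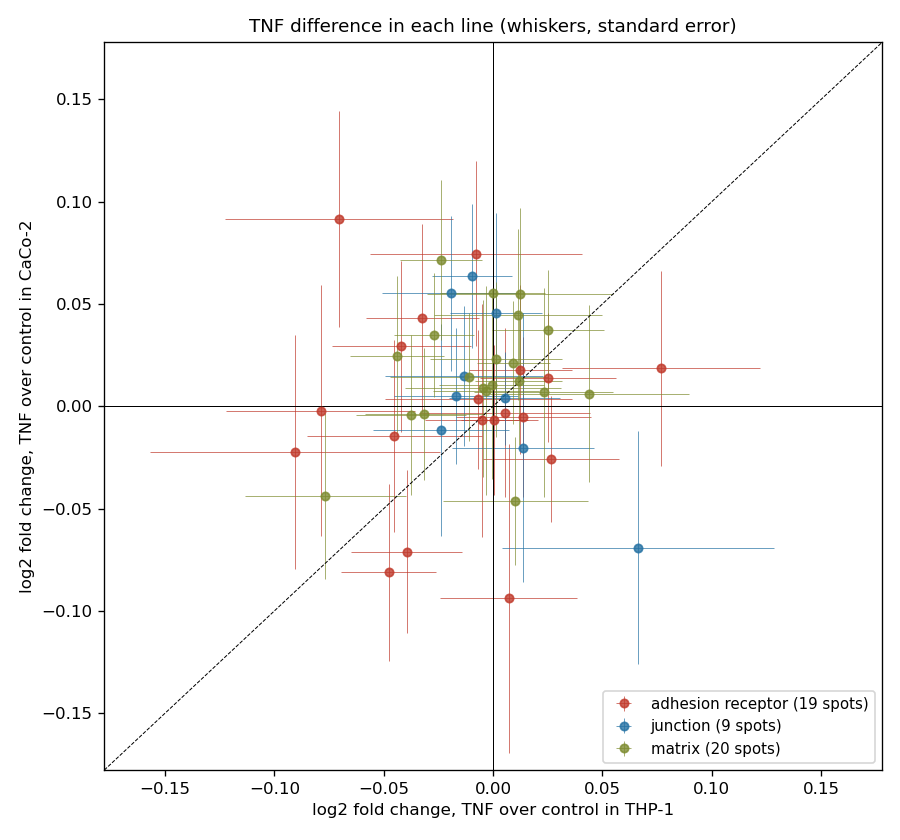
Log2 fold change of TNF over control in CaCo-2 (vertical) against that in THP-1 (horizontal) for the 48 members tested in both lines, with standard errors and a dashed line of equality. All points lie between -0.09 and 0.09 in CaCo-2 and between -0.09 and 0.08 in THP-1, and the whiskers of most cross 0.

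Genes that work with the members were read from lists of other junction genes (32 of 42 genes with a spot), adhesion adaptors (20 of 27) and matrix partners (25 of 43). Over all arrays, 3 of 17 tested spots of other junction genes were higher in CaCo-2 and 0 lower (17.6%), where 17.7% of all spots passed, 2182 higher and 816 lower. The share in this list was that of the background. The spots were PKP2, a desmosomal plakophilin (log2 fold change 0.19, adjusted p = 0.00783), NECTIN3, a cell adhesion molecule of adherens junctions (0.09, adjusted p = 0.0123), and AFDN, its actin linker (0.06, adjusted p = 0.0238). Other tested NECTIN3 spots did not pass, at 0.01 (adjusted p = 0.8645), 0.02 (adjusted p = 0.3876) and 0.07 (adjusted p = 0.1701). Of 25 tested adaptor spots 8 were higher and 0 lower (32.0%, beside the same 17.7%). ILK, the integrin-linked kinase, averaged 0.643 in CaCo-2 and 0.566 in THP-1, with log2 fold change 0.19 and adjusted p = 0.00508. TLN2, a talin that couples integrins to actin, stood at 0.15 (adjusted p = 0.00386), and BCAR1, an adaptor of focal adhesions, at 0.15 (adjusted p = 0.00564). The other adaptor calls were 2 spots of ACTN4 and 3 of PXN, at 0.07 to 0.11. Further tested spots of both genes did not pass, at 0.04 to 0.05 for ACTN4 and 0.06 for PXN. Of 25 tested spots of matrix partners 6 were higher and 0 lower (24.0%, beside 17.7%). FN1, fibronectin, had both spots higher, at 0.39 (adjusted p = 0.00348) and 0.09 (adjusted p = 0.0207). SERPINH1, the collagen chaperone, had 2 spots higher, at 0.16 (adjusted p = 0.000072) and 0.15 (adjusted p = 0.000618). Another tested SERPINH1 spot, at 0.08, did not pass (adjusted p = 0.1594). AGRN, a basement membrane proteoglycan, stood at 0.12 (adjusted p = 0.00125) and DDR2, a collagen receptor kinase, at 0.09 (adjusted p = 0.0307). In the TNF comparisons 0 spots of these lists passed in either line, and 0 spots of the whole array did. At an unadjusted p under 0.05, in CaCo-2 there were 3 of 30 spots of other junction genes, 0 of 33 of adaptors and 0 of 31 of matrix partners, beside 2.46% of all spots. In THP-1 there were 0 of 25, 0 of 34 and 1 of 32 in the same order, beside 2.47% of all spots.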

How the data were processed

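RNA of CaCo-2 and THP-1 cells was labelled with 33P and hybridised to membrane cDNA arrays, per the labels' protocols. What the authors deposited is a linear intensity per spot. How they analysed the images, corrected background and normalized is not stated in the sources used here. Column medians were 0.117 to 0.170, and 0.441 in 1 column at the scale of a sum of 3. Of 33 deposited columns, 11 were at that scale, and 10 of these paired with a single column as sums of the same readings. In 9 pairs the single column was used. The pair with opposite treatment labels was left out, and the lone summed column, THP-1 control 3, was divided by 3, which left 22 arrays.

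Readings below 0 were missing from the start. Readings at 0 were first raised to the lowest positive value of their array. Values were then quantile normalized on the log2 scale, so the raised zeros took part in the quantiles. After this step the readings at 0 were set to missing. Spots with at least 3 arrays above 0 in every group were fitted with limma 3.58.1 (R 4.3.3; lmFit, eBayes with a variance trend), as two-sided tests at a threshold of 0.05 after Benjamini-Hochberg adjustment over every spot tested. Intervals are 95% intervals of the fit. Arrays above 0 were compared by Fisher's exact test. The fit was tested on simulated data. Genes were named from the platform annotation, with all 107 Entrez IDs found in RefSeq. Named genes were, per comparison, every spot past the threshold, and per class the 4 genes with the highest level, the 4 with the smallest p between lines, the 2 with the smallest p in each TNF comparison, and the listed typical genes. ITGA9, CTNNAL1, COL9A2, COL13A1, COL23A1, COL7A1, COL8A2 and LAMA4 were also chosen after their values were seen where this rule did not name them. The members and lists were chosen with earlier results of these data known. Alternatives covered zeros, normalization, filters, column use, blocks and left-out arrays.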

Additional observations from a re-analysis of the deposited data

Results flagged for a closer look

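Among 80 groups of arrays searched over 24 spots, 3 held an array far from the others, and chance alone marks about 1 group in 20 by this criterion. COL1A1 read 0.4007 on THP-1 control 7, against 0.3776 to 0.3836 on the other THP-1 control arrays. CTNNBL1 spot 1 read 0.2654 on THP-1 TNF 8, against 0.2545 to 0.2554 on the other THP-1 TNF arrays above 0. ITGB8 spot 1 read 0.9789 on CaCo-2 control 4, against 0.8619 to 0.8921 on the other CaCo-2 control arrays.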

How the results depend on the processing

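Of 225 alternative counts of called members, 191 stayed within 1.5 times the reported count. All of those for the TNF comparisons and for the difference of TNF effects were 0. Reported counts were above 0 only over all arrays and in TNF-treated cells, and a 0 that stayed 0 was scored as the same. The 191 therefore does not measure how stable the reported 10 and 5 were. A like count need not mean the same spots. With zeros raised 8 of 107 were called over all arrays, 4 of them among the reported 10, beside 4.41% of all spots. Over all arrays the reported 10 of 48, beside 17.7% of all tested spots, became 6 of 15 with spots above 0 on every array only, beside 25.4%. It was 6 of 107 with a pseudocount and zeros kept (only 2 of them among the 10), beside 3.67%. Without dim spots it was 6 of 17, beside 24.8%, and with the mean of paired columns 6 of 65, beside 5.96%. The mean of a gene's spots gave 4 of 43, beside 12.9%. The CaCo-2 sets as a random block gave 3 of 48, beside 3.24%. With 4 random blocks it was 0 of 48, beside 0.118%, and without normalization 1 of 48, beside 0.874%. Without normalization 148 spots passed over the whole array, 50 higher and 98 lower in CaCo-2, against 2182 higher and 816 lower with it. With a pseudocount they were 461 and 806, with zeros raised 915 and 610, and with spots above 0 on every array only 913 and 712. In TNF-treated cells the reported 5 of 63, beside 2.14% of all tested spots, became 1 of 107 with zeros raised (beside 1.25%). It was 2 of 19 with spots above 0 on every array (4.28%), 1 of 107 with a pseudocount (1.49%) and 0 of 63 without normalization (0.607%). With at least 1 array above 0 per group it was 2 of 87 (0.773%), and with the mean of paired columns 1 of 71 (0.311%). Array weights gave 9 of 63 (10.4%), and no variance trend 3 of 63 (1.39%). The mean of a gene's spots gave 0 of 52 (0.608%), and leaving out set B 1 of 55 (1.32%). The random blocks gave 0 of 63 each (0.289% and 0.00482%). In untreated cells the reported 0 (beside 0.386% of all tested spots) became 1 with all columns as deposited (1.25%) and 3 with array weights (4.65%). It was 2 with all 4 groups in 1 fit (2.16%) and 2 without set A (5.49%). Arrays above 0 gave 1 member with all columns as deposited, beside 1.8% of all spots, against 0 beside 0.284%. Leaving out each array gave 7 to 12 over all arrays, 0 to 7 in TNF-treated cells and 0 to 2 in untreated cells. The shares of all tested spots ran from 13.3% to 25.5%, 0.567% to 8.63% and 0.0445% to 5.54% in the same order. CDH2 spot 1 changed sign to -0.12 with zeros raised, -0.30 with a pseudocount, -0.0127 without normalization and -0.0495 with the mean of paired columns, and COL5A2 to -0.0137 without normalization. The cause of these changes was not tested. Same-numbered arrays deviated together with correlations from -0.37 to 0.67, so the numbers do not pair the arrays. The replicate block gave 11 members over all arrays (9 among the 10), beside 17.3% of all spots. It gave 5 in TNF-treated cells (3 among the reported 5), beside 3.36%, and 0 in untreated cells and in the TNF comparisons. Signal over background cannot be given, since no background readings were used here.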
